A study of Mus musculus with 32 samples.

Results

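The comparison is of the quadriceps, a large thigh muscle, of sick and of healthy mice that all carried the same M743T knock-in on both alleles of Gne. It rests on 7 of the 32 sequencing libraries of the study, taken by their labels: 3 from sick knock-in quadriceps (replicates 2, 3 and 4) and 4 from healthy knock-in quadriceps (replicates 1 to 4). Another 4 libraries from wild-type quadriceps, whose mice were healthy, served to estimate the spread between libraries, and their level is given for a few genes and lists. All mice were males of up to 3 months of age, 4 per state by the labels. The labels do not say by what signs a mouse was called sick, nor which libraries of different muscles share a mouse. The p-values therefore rest on how far single libraries of a group differ, which may be partly technical.

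GNE is the enzyme that starts the synthesis of sialic acid, the sugar that caps many glycoproteins and glycolipids on the cell surface. It acts as an epimerase on UDP-N-acetylglucosamine and as a kinase on N-acetylmannosamine, and the residue replaced here lies in the kinase part. Recessive variants of the human gene cause GNE myopathy, a slowly progressing weakness of distal muscles that largely spares the quadriceps in patients. The replaced codon is shown because it is what both groups of mice share; the change does not separate them. In GENCODE vM21, built on GRCm38, the methionine codon replaced in M743T (capitals) lies, in the 753-residue product of Gne-201, in exon 12 of 12, at chr4:44037151-44037153 on the minus strand, with 30 bases of coding sequence on either side:
Codon of M743T in Gne, wild-type bases: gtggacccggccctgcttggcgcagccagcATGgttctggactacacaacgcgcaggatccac

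Gne itself had 9.69, 10.1 and 10.9 CPM in sick quadriceps, against 9.28, 9.46, 10.9 and 14.7 CPM in healthy quadriceps (CPM are counts per 1000000 reads of the scaled library total, written in the order of replicates 2, 3 and 4 for sick and 1 to 4 for healthy). The ranges overlapped, and the difference did not pass the test (log2 fold change -0.09 ± 0.17 (SE), adjusted p = 0.731). Wild-type quadriceps averaged 9.35 ± 0.657 CPM (SD, n = 4). Values in brackets after a gene are, from here on, the log2 fold change of sick over healthy ± its SE and the adjusted p of limma. In the same pathway, Gfpt1, which feeds the hexosamine route upstream of Gne, had 38.0, 40.2 and 64.2 CPM in sick, against 68.1, 87.8, 89.9 and 84.5 CPM in healthy libraries, and fell (log2 fold change -0.83 ± 0.21 (SE), adjusted p = 0.0226). Cmas, which activates sialic acid in the nucleus, had 15.2, 18.6 and 18.5 CPM in sick, against 32.9, 24.9, 26.6 and 23.2 CPM in healthy libraries, and fell too (-0.63 ± 0.14, adjusted p = 0.0159). Neu1, the lysosomal sialidase that removes sialic acid, had 31.2, 24.1 and 21.5 CPM in sick, against 18.0, 14.9, 17.1 and 15.4 CPM in healthy libraries, and rose (0.65 ± 0.16, adjusted p = 0.023). Of these 3 genes, sick and healthy ranges did not overlap, which their choice as called genes favoured. Of genes for synthesis, transport and removal of sialic acid, 1 of 24 members tested (4.17%) rose and 2 (8.33%) fell (median log2 fold change -0.29). Over all genes tested, 10.1% rose and 7.51% fell. The list was thus below all genes in higher calls and near them in lower calls. Its counts were 2 and 2 without healthy replicate 4, 0 and 0 without sick replicate 2, and 0 to 2 and 1 to 6 without any 1 of the others. Among the 3 calls, no call held in each of the 7 fits without 1 knock-in library. By library, 3 genes without sick replicate 2, 2 without healthy replicate 3, 2 without sick replicate 3 and Neu1 without healthy replicate 2 missed 0.05 (adjusted p 0.0528 to 0.138).

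Library totals ran from 8054029 to 17268035 counted reads in sick, from 7685164 to 30652364 in healthy and from 11547783 to 42588233 in wild-type quadriceps. The libraries of a group differed beyond sampling noise and were each counted as 1 sample. Muscle markers were abundant throughout: the 15 genes that define skeletal muscle summed to 162600, 252000 and 271700 CPM in sick, against 237500, 239600, 193100 and 189300 CPM in healthy libraries. Healthy replicate 4 stood apart on the second principal component, with 525 genes more than 2-fold above the highest of the other 3 healthy libraries, against 43 to 152 for the others. Its 18 adipocyte markers summed to 12530 CPM, against 2509 to 3127 CPM in the other healthy libraries and 3457 to 6332 CPM in the sick ones. Among defining adipocyte genes, Adipoq had 3.16, 45.9 and 63.3 CPM in sick, against 19.6, 9.65, 24.3 and 191 CPM in healthy libraries. Plin1 had 1.58, 34.7 and 38.0 CPM in sick, against 13.3, 8.399, 19.6 and 241 CPM in healthy libraries, and Lep was listed at 0 in sick replicates 2 and 3. Results are therefore given with and without healthy replicate 4. Sick replicate 4 lay nearest to the healthy libraries: of the 2431 genes that passed the test, it was the least changed of the 3 sick libraries in 80.0%, and sick replicate 2 the most changed in 70.9%.

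**Figure D1:**
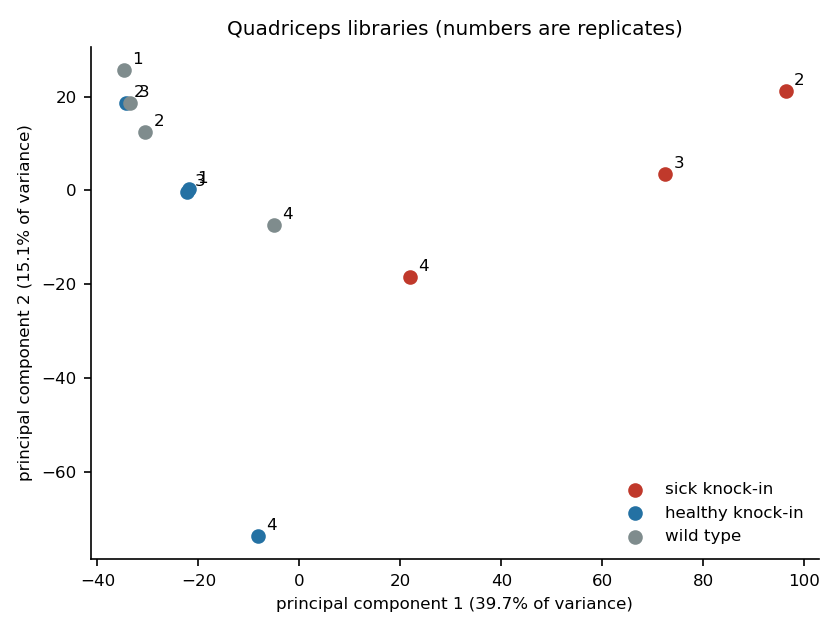
Position of the 11 quadriceps libraries on the principal components 1 (39.7% of the variance) and 2 (15.1%) of log2 CPM, with replicate numbers beside the points. The 3 sick libraries have the highest values of component 1, in the order 2, 3, 4, and healthy replicate 4 lies alone at the bottom of component 2.

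Of 13799 genes tested, 1395 (10.1%) rose and 1036 (7.51%) fell in sick relative to healthy knock-in quadriceps at an adjusted p under 0.05 in limma-voom, with Benjamini-Hochberg adjustment over all genes tested. Without healthy replicate 4, 1200 of 13969 (8.59%) rose and 1197 (8.57%) fell. The 2 fits shared 1953 calls, all of the same sign, which are 80.3% of the calls with that library and 81.5% of those without it. The CPM of the 3 sick libraries lay above all 4 healthy ones in 1715 genes (12.4%) and below them in 1620 (11.7%). The number of calls depended on single libraries: 289 genes passed without sick replicate 2, 846 without sick replicate 3 and 4061 without sick replicate 4, and 1421 and 1054 passed without healthy replicates 2 and 3. It was 366 in a fit of the 7 knock-in libraries alone, in which the wild-type libraries do not add to the estimate of the spread. The fit of all 11 libraries takes 1 spread per gene for the 3 groups. On principal component 1, the sick libraries lay at 96.3, 72.4 and 21.9. Healthy ones lay from -34.4 to -8.22 and wild-type ones from -34.7 to -5.03. Where sick libraries differ more than the others, p-values of that fit can be too low. A core of 270 genes, 169 higher and 101 lower, passed in each of the 7 fits that leave out 1 knock-in library. The authors' deposited table calls 2581 genes for this comparison at the same threshold, 1349 higher and 1232 lower. It shares 1926 with the calls made here, 74.6% of its own and 79.2% of those made here, all of the same sign. Healthy knock-in and wild-type quadriceps differed in 5 genes by limma (637 at an unadjusted p under 0.05), and sick knock-in and wild-type quadriceps in 2488. These 3 comparisons share libraries. The shares of 10.1% and 7.51% are the background for the counts of each gene list in the fit of all 11 quadriceps libraries. A list near them did not stand apart from all genes tested. Fits that leave out libraries have backgrounds of their own. Over all genes tested, 182 of 13538 rose and 107 fell without sick replicate 2. Without sick replicate 3 it was 513 and 333 of 13967, and without sick replicate 4 it was 2333 and 1728 of 13964. Without any 1 of healthy replicates 1 to 3, 596 to 1023 rose and 458 to 758 fell. The 7 knock-in libraries alone gave 188 and 178 of 12934. Counts of that fit are given below for some lists only.

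The genes with the highest fold changes took in a restraint on growth signalling, a cytokine receptor, a growth factor and a mast cell protease. The 12 highest and 12 lowest genes were taken only from those whose sick and healthy ranges do not overlap, so that their separation is part of the choice. Sesn1, which encodes sestrin 1, a stress-induced restraint on the growth kinase complex mTORC1, had 624, 242 and 163 CPM in sick quadriceps, against 30.5, 31.5, 19.4 and 52.8 CPM in healthy quadriceps. Every sick library was at least 3 times the highest healthy one (log2 fold change 3.24 ± 0.43 (SE), adjusted p = 0.00464, and 3.44 without healthy replicate 4 with adjusted p = 0.00432). Il6ra, the receptor subunit for interleukin 6, had 226, 134 and 45.5 CPM in sick, against 6.23, 8.98, 6.44 and 37.8 CPM in healthy libraries (3.51 ± 0.64, adjusted p = 0.0102). Cebpd, a transcription factor of the acute phase, had 342, 269 and 182 CPM in sick, against 13.2, 17.9, 15.8 and 65.7 CPM in healthy libraries (3.59 ± 0.70, adjusted p = 0.0123). For both genes healthy replicate 4 was the highest healthy library, and their log2 fold changes without it were 3.95 and 3.99. Egln3, a prolyl hydroxylase that is itself induced by low oxygen, had 728, 884 and 78.7 CPM in sick, against 38.8, 20.9, 55.7 and 30.6 CPM in healthy libraries. Ngfr, the low-affinity nerve growth factor receptor, had 15.3, 13.0 and 4.98 CPM in sick, against 1.175, 1.25, 0.789 and 0.987 CPM in healthy libraries (3.34 ± 0.49, adjusted p = 0.00518). Vegfd, a growth factor of lymphatic vessels, had 59.8, 40.0 and 8.65 CPM in sick, against 1.88, 3.67, 2.24 and 6.29 CPM in healthy libraries. Tpsab1, a tryptase of mast cells, had 5.93, 4.97 and 5.47 CPM in sick, against 0.117, 0.193, 0.316 and 0.123 CPM in healthy libraries, with the sick libraries close together (4.52 ± 0.47, adjusted p = 0.00222). It passed the count filter only through the sick libraries, where it is high, so its p is not separate support for the difference. Ctxn3 (251, 358 and 23.99 CPM in sick, against 14.3, 2.61, 4.23 and 4.69 CPM in healthy libraries) and Doc2b, a calcium sensor of vesicle release (33.3, 19.5 and 5.96 CPM in sick, against 1.29, 1.45, 0.316 and 5.43 CPM in healthy libraries), had sick replicate 4 far below the other sick libraries. Gm44117, Oacyl and 2410006H16Rik complete the 12, with log2 fold changes of 4.25, 3.67 and 3.27. Among the 12, the call of Gm44117, Il6ra, Ngfr, 2410006H16Rik and Sesn1 held in each of the 7 fits without 1 knock-in library. Among the rest, 6 genes without sick replicate 2, 4 without healthy replicate 3 and 3 without sick replicate 3 missed 0.05 (adjusted p 0.0504 to 0.0996). Tpsab1 fell under the count filter, and was not tested, without any 1 of the sick libraries. The lowest p of all genes, chosen after its values were seen, was that of Gng2, a G-protein gamma subunit, at 26.1, 25.6 and 20.3 CPM in sick, against 3.99, 3.86, 4.198 and 3.70 CPM in healthy libraries (2.57 ± 0.17, adjusted p = 6.64e-05).

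The genes with the lowest fold changes took in an ion channel subunit, a coregulator of transcription, an NAD enzyme and leptin. Kcng4, a modifier subunit of potassium channels, had 2.07, 5.49 and 45.0 CPM in sick quadriceps, against 133, 120.5, 159 and 146 CPM in healthy quadriceps. Sick replicates 2 and 3 were far below every healthy library and sick replicate 4 stood between (log2 fold change -4.23 ± 0.72 (SE), adjusted p = 0.00812, and -4.25 without healthy replicate 4 with adjusted p = 0.0145). Cited4, a transcriptional coregulator, had 0.599, 2.81 and 7.43 CPM in sick, against 48.6, 60.8, 46.4 and 26.2 CPM in healthy libraries (-4.43 ± 0.65, adjusted p = 0.00547). Nmrk2, a muscle-enriched kinase that makes NAD from nicotinamide riboside, had 6.53, 4.59 and 18.0 CPM in sick, against 179, 39.0, 233.5 and 274 CPM in healthy libraries (-4.10 ± 0.81, adjusted p = 0.0126). Wild-type quadriceps averaged 41.3 ± 19.0 CPM of Nmrk2, below the healthy knock-in mean of 181 CPM, and sick over wild type did not pass (log2 fold change -2.18, adjusted p = 0.0817). Gdap1, a protein of the mitochondrial outer membrane, had 0.708, 0.893 and 6.61 CPM in sick, against 32.7, 15.4, 35.4 and 39.7 CPM in healthy libraries. Plcd4, a phospholipase C, had 1.14, 5.36 and 35.8 CPM in sick, against 106, 98.6, 70.4 and 87.4 CPM in healthy libraries. Themis3 had 0.0544, 0.128 and 0.408 CPM in sick, against 6.46, 5.02, 6.28 and 13.3 CPM in healthy libraries. The interferon-inducible GTPase Gm4841 had 0.435, 1.79 and 14.0 CPM in sick, against 40.9, 63.1, 36.9 and 34.1 CPM in healthy libraries. F830016B08Rik had 2.23, 3.70 and 21.9 CPM in sick, against 40.3, 129, 82.7 and 88.7 CPM in healthy libraries, and the low genes AC122818.4, Gm31026 and Zfp493 had log2 fold changes of -4.07, -3.77 and -3.77. Lep, the adipocyte hormone leptin, had 3 reads over the 3 sick libraries, against 350 over the 4 healthy ones, of which 121 came from replicates 1 to 3. The ratio of sick to healthy per scaled read was 0.0131 (95% interval 0.00268 to 0.0385), and 0.0326 (0.00663 to 0.0975) without healthy replicate 4. These intervals cover counting error only. Of the 12 genes, the call of Themis3, Cited4 and Kcng4 held in each of the 7 fits without 1 knock-in library. The 0.05 threshold was missed by 9 genes without sick replicate 2, 6 without sick replicate 3, 2 without healthy replicate 1, 2 without healthy replicate 2 and 2 without healthy replicate 3 (adjusted p 0.0516 to 0.241).

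**Figure D2:**
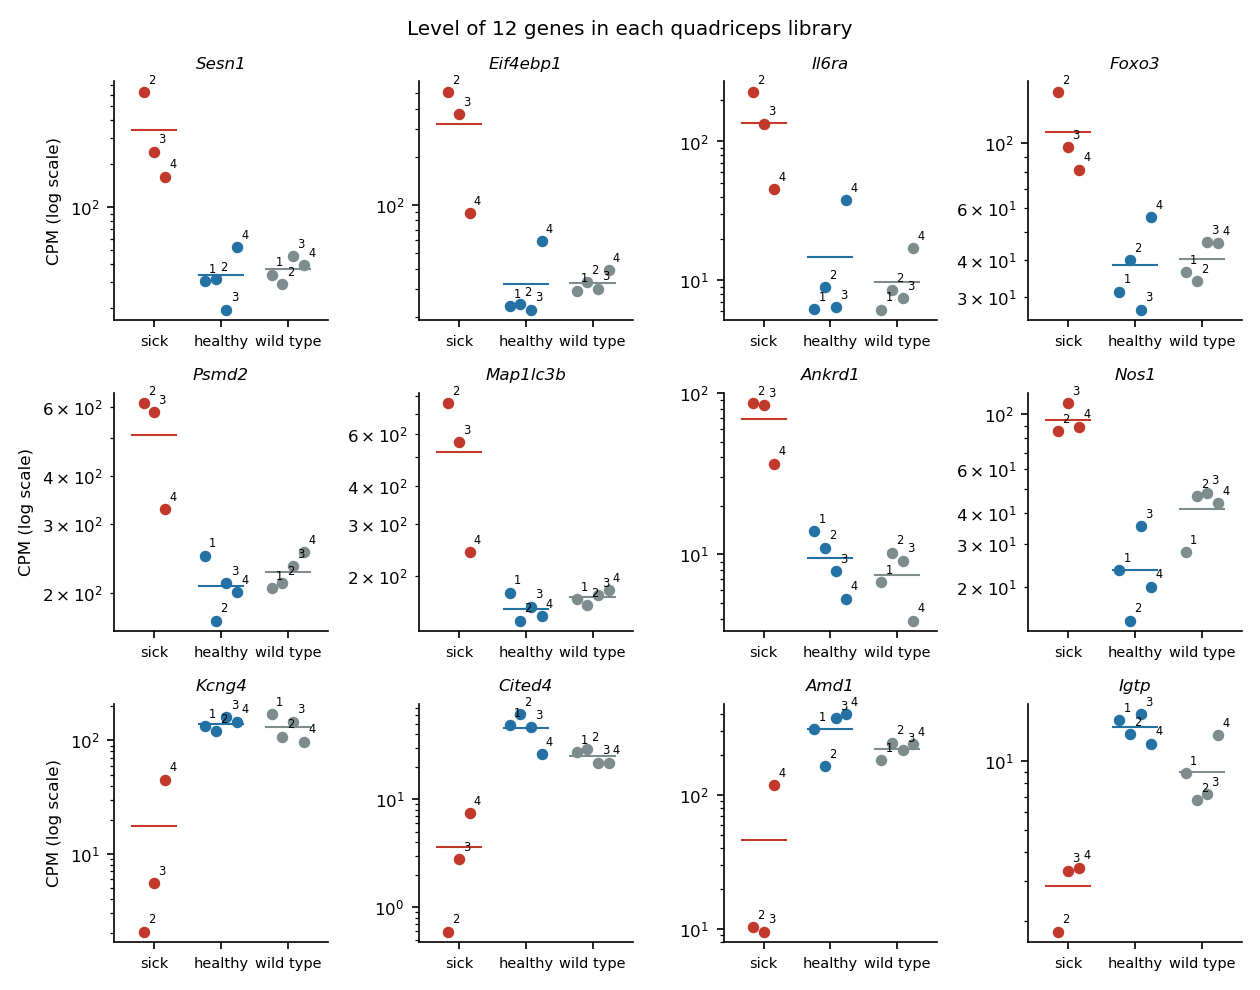
CPM of 12 genes on a log axis in each quadriceps library of the sick knock-in, healthy knock-in and wild-type groups, with replicate numbers beside the points and the group mean as a line. For each gene the 3 sick libraries lie on one side of the 4 healthy ones. The choice of Sesn1, Il6ra, Kcng4 and Cited4 required this, and the choice of the others by p favoured it. Sick replicate 4 is the sick library nearest to the healthy ones in every gene but Nos1.

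Growth of muscle fibres is driven by insulin-like growth factors through the kinase AKT to mTORC1, and restrained by inhibitors of mTORC1 and by myostatin-type ligands that act through SMAD proteins. Of mTORC1 brakes and translation repressors, 5 of 16 members tested rose and 0 fell (median log2 fold change 0.33). Rising and falling members numbered 6 and 0 without healthy replicate 4, 2 and 0 without sick replicate 2, and 3 to 5 and 0 to 1 without any 1 of the others. Eif4ebp1, which blocks cap-dependent translation until mTORC1 phosphorylates it, had 505, 368 and 88.8 CPM in sick quadriceps, against 23.3, 24.04, 22.2 and 59.5 CPM in healthy quadriceps (log2 fold change 3.15 ± 0.53 (SE), adjusted p = 0.00812). Klf15, a glucocorticoid-induced factor of amino acid breakdown, had 287, 156 and 90.2 CPM in sick, against 28.2, 23.9, 27.4 and 72.3 CPM in healthy libraries (2.25 ± 0.50, adjusted p = 0.0172). Akt1s1, a subunit that restrains mTORC1, had 179, 128 and 119 CPM in sick, against 94.2, 89.3, 100.1 and 82.5 CPM in healthy libraries (0.61 ± 0.15, adjusted p = 0.0216). The sick libraries were above the healthy ones in all 3 genes, which their choice by p favoured.

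In the list of growth hormone, insulin-like growth factors and their signalling, 7 of 21 members tested rose and 2 fell (median log2 fold change 0.19). Corresponding counts were 7 and 1 without healthy replicate 4, 3 and 0 without sick replicate 2, and 5 to 9 and 1 to 3 without any 1 of the others. The receptor gene Igf1r had 81.0, 39.0 and 26.9 CPM in sick, against 12.3, 15.3, 13.6 and 13.0 CPM in healthy libraries, and rose (1.72 ± 0.33, adjusted p = 0.0109). Akt1, the kinase below it, had 153, 129 and 89.1 CPM in sick, against 49.9, 59.4, 61.8 and 57.5 CPM in healthy libraries, and rose as well (1.08 ± 0.18, adjusted p = 0.00755). The 2 binding proteins moved in opposite directions. Igfbp3 had 432, 273 and 96.9 CPM in sick, against 15.2, 38.8, 13.6 and 68.5 CPM in healthy libraries (3.12 ± 0.60, adjusted p = 0.0115). Igfbp5, the abundant binding protein of muscle, had 72.0, 102 and 499.7 CPM in sick, against 1171, 1620, 906 and 911 CPM in healthy libraries (-2.86 ± 0.55, adjusted p = 0.0117). Of the SMAD route, 2 of 19 members tested rose and 1 fell (median log2 fold change 0.11). Counts in the same order were 2 and 2 without healthy replicate 4, 1 and 0 without sick replicate 2, and 1 to 4 and 1 to 3 without any 1 of the others. Smad4, the shared partner of activated SMADs, had 108, 85.0 and 80.2 CPM in sick, against 47.6, 49.1, 53.4 and 52.5 CPM in healthy libraries (0.83 ± 0.12, adjusted p = 0.0049). Tgfbr1, a receptor kinase, had 114, 78.8 and 50.1 CPM in sick, against 50.05, 44.0, 48.7 and 38.4 CPM in healthy libraries (0.76 ± 0.23, adjusted p = 0.04). The ligand gene Gdf11 had 1.31, 2.55 and 3.75 CPM in sick, against 39.6, 19.9, 34.3 and 15.1 CPM in healthy libraries (-3.56 ± 0.59, adjusted p = 0.00744). Of the 10 named genes of growth signalling, the call of Eif4ebp1, Akt1, Igf1r and Smad4 held in each of the 7 fits without 1 knock-in library. Calls were lost for 6 genes without sick replicate 2, 2 without healthy replicate 2, 2 without healthy replicate 3, 2 without sick replicate 3, Tgfbr1 without healthy replicate 1 and Tgfbr1 without healthy replicate 4 (adjusted p 0.0505 to 0.19).

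The genes of protein breakdown that passed the test were mostly higher in sick quadriceps. Wasting muscle marks sarcomere proteins with ubiquitin by ligases under the control of FOXO factors and degrades them in the proteasome. Of atrophy ligases and their regulators, 8 of 24 members tested rose and 2 fell (median log2 fold change 0.41). Higher and lower calls came to 4 and 2 without healthy replicate 4, 1 and 0 without sick replicate 2, and 2 to 10 and 0 to 3 without any 1 of the others. With the 7 knock-in libraries alone, 1 rose and 0 fell. Trim63, the ligase MuRF1, had 4142, 2571 and 501 CPM in sick quadriceps, against 254, 133, 149 and 439 CPM in healthy quadriceps. Sick replicates 2 and 3 were far above, and sick replicate 4 was close to healthy replicate 4 (log2 fold change 2.98 ± 0.70 (SE), adjusted p = 0.0202, and 3.29 without healthy replicate 4 with adjusted p = 0.0207). Foxo3, the transcription factor that drives this programme, had 149, 97.0 and 81.3 CPM in sick, against 31.2, 40.0, 27.2 and 56.2 CPM in healthy libraries (1.53 ± 0.26, adjusted p = 0.00763). The ligase subunit gene Fbxo31 had 806, 564 and 218 CPM in sick, against 150, 108, 155 and 147 CPM in healthy libraries (1.73 ± 0.34, adjusted p = 0.0117). Trim54, a relative of MuRF1, had 291, 295 and 198 CPM in sick, against 198, 136, 184 and 160.0 CPM in healthy libraries (0.62 ± 0.18, adjusted p = 0.038). The 2 lower calls, named after their values were seen, were Trim55, a relative of MuRF1, and Trim32, a further ligase.

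All 33 proteasome subunits tested had a positive fold change, against 6821 of 13799 over all genes. In that list 21 of 33 members tested rose and 0 fell (median log2 fold change 0.72). In that order, there were 13 and 0 without healthy replicate 4, 4 and 0 without sick replicate 2, and 5 to 32 and 0 without any 1 of the others. A fit of the 7 knock-in libraries alone called 3. Psmd2, a subunit of the regulatory cap, had 614, 583 and 328 CPM in sick, against 249.2, 169.6, 211 and 200.3 CPM in healthy libraries (1.25 ± 0.21, adjusted p = 0.00724). The cap subunit Psmd4, a ubiquitin receptor, had 424, 372 and 181 CPM in sick, against 145, 112, 106 and 103 CPM in healthy libraries (1.40 ± 0.25, adjusted p = 0.00812). Psma7 of the core particle had 244, 241 and 115 CPM in sick, against 87.4, 76.1, 74.7 and 65.2 CPM in healthy libraries (1.32 ± 0.23, adjusted p = 0.00812). Psmd1 of the cap had 365, 320.0 and 205 CPM in sick, against 166, 143, 142 and 149 CPM in healthy libraries (0.94 ± 0.17, adjusted p = 0.00902). Summed over the list, the subunits had 7710, 6883 and 4116 CPM in sick, against 3927, 3358, 3345 and 3106 CPM in healthy libraries, so sick replicates 2 and 3 were high and sick replicate 4 was little above the highest healthy library. In the 29 RefSeq promoter windows of 27 of these genes (GRCm38.p6, 250 bases before to 50 after the start), 5 or 17.2% hold the antioxidant response element core TGACNNNGC on either strand, against 12.4% of all 32851 windows. Of the 16 called genes among them, 2 or 12.5% hold it. The forkhead (FoxO) site GTAAACA, on either strand, is in 1 of 22 windows (4.55%) of the atrophy ligase list and in 0 of 22 of the autophagy list described next, against 3.65% of all windows. Of the 8 genes named for ligases and proteasome, the call of Foxo3, Psmd2, Psma7, Psmd4 and Psmd1 held in each of the 7 fits without 1 knock-in library. No longer past 0.05 were 3 genes without sick replicate 2, 2 without healthy replicate 2, 2 without healthy replicate 3, 2 without sick replicate 3 and Trim54 without healthy replicate 4 (adjusted p 0.0501 to 0.177).

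Autophagy delivers protein and organelles to the lysosome. In the autophagy and mitophagy list 10 of 24 members tested rose and 0 fell (median log2 fold change 0.52). Calls in each direction numbered 7 and 0 without healthy replicate 4, 1 and 0 without sick replicate 2, and 5 to 11 and 0 without any 1 of the others. A fit of the 7 knock-in libraries alone called 1. Map1lc3b, which coats the autophagosome, had 758, 562 and 241 CPM in sick quadriceps, against 176, 142, 158 and 147 CPM in healthy quadriceps (log2 fold change 1.58 ± 0.29 (SE), adjusted p = 0.0094). Sqstm1, the cargo receptor p62, had 1662, 1644 and 567 CPM in sick, against 426, 351, 403 and 343 CPM in healthy libraries (1.61 ± 0.31, adjusted p = 0.0108). The mitophagy receptor gene Bnip3 had 393, 351 and 109 CPM in sick, against 64.6, 51.8, 64.7 and 103 CPM in healthy libraries (1.84 ± 0.39, adjusted p = 0.0149). Nbr1, a second cargo receptor, had 207, 157 and 133 CPM in sick, against 112, 98.2, 97.5 and 112 CPM in healthy libraries (0.63 ± 0.14, adjusted p = 0.0157). None of the 4 overlapped between the groups, which their choice by p favoured. Of the lysosome list, 6 of 28 members tested rose and 1 fell (median log2 fold change 0.16). These counts were 5 and 2 without healthy replicate 4, 1 and 0 without sick replicate 2, and 1 to 11 and 0 to 3 without any 1 of the others. They were 0 and 0 with the 7 knock-in libraries alone. Gaa, the lysosomal enzyme that degrades glycogen, had 789, 549 and 450.4 CPM in sick, against 339, 274, 307 and 236 CPM in healthy libraries (1.01 ± 0.19, adjusted p = 0.0101). Lamp2, a membrane protein of the lysosome, had 242, 222 and 127 CPM in sick, against 107, 115, 100.3 and 119.7 CPM in healthy libraries (0.78 ± 0.19, adjusted p = 0.0211). The cathepsin gene Ctsf had 46.4, 35.5 and 34.0 CPM in sick, against 30.4, 22.9, 22.0 and 24.6 CPM in healthy libraries (0.66 ± 0.16, adjusted p = 0.0198). Counting Neu1 with these genes, the call of Map1lc3b and Gaa held in each of the 7 fits without 1 knock-in library. Past calls failed for 6 genes without sick replicate 2, 3 without healthy replicate 3, 3 without sick replicate 3 and 2 without healthy replicate 2 (adjusted p 0.0528 to 0.138).

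The list of glucocorticoid receptor and responsive genes had the highest median fold change of the lists, and more of its members passed without healthy replicate 4 than with it. Here 8 of 23 members tested rose and 0 fell (median log2 fold change 1.48). Rising and falling members numbered 14 and 0 without healthy replicate 4, 0 and 0 without sick replicate 2, and 2 to 12 and 0 without any 1 of the others. Summed over its 24 genes it had 8796, 7079 and 5739 CPM in sick, against 1895, 1828, 2011 and 6803 CPM in healthy libraries, so healthy replicate 4 lay within the sick range and the other 3 healthy libraries far below. Tsc22d3, the glucocorticoid-induced leucine zipper, had 879, 711 and 643 CPM in sick quadriceps, against 239, 379, 333 and 482 CPM in healthy quadriceps (log2 fold change 1.08 ± 0.24 (SE), adjusted p = 0.0157). Cdkn1a, the cell-cycle inhibitor p21, had 374, 241 and 78.5 CPM in sick, against 19.5, 31.8, 22.1 and 62.0 CPM in healthy libraries (2.69 ± 0.60, adjusted p = 0.0166). Nfkbia, the inhibitor of NF-kappa-B, had 77.0, 58.8 and 68.6 CPM in sick, against 18.0, 19.7, 24.7 and 40.9 CPM in healthy libraries (1.48 ± 0.32, adjusted p = 0.0147). Mt2, a metallothionein induced by zinc and glucocorticoids, had 104, 110.3 and 30.7 CPM in sick, against 4.35, 2.12, 4.67 and 94.5 CPM in healthy libraries. Healthy replicate 4 reached the sick level there, so the groups overlapped (3.35 ± 0.88, adjusted p = 0.0284, and 4.18 without healthy replicate 4 with adjusted p = 0.0101). Plin4, a lipid droplet protein made in adipocytes and in muscle fibres, showed the same overlap, with 1388, 934 and 663 CPM in sick, against 188, 178, 202 and 909.9 CPM in healthy libraries (1.73 ± 0.53, adjusted p = 0.046, and 2.29 without healthy replicate 4 with adjusted p = 0.00155). The adipocyte marker sum and the glucocorticoid sum were thus both high in healthy replicate 4. The part of either in the result was not tested.

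In interleukin 6 signalling and acute phase, 3 of 16 members tested rose and 0 fell (median log2 fold change 0.71). Corresponding counts were 6 and 0 without healthy replicate 4, 1 and 0 without sick replicate 2, and 2 to 5 and 0 without any 1 of the others. Besides Il6ra and Cebpd, the call was Cebpb, a related factor, with 74.6, 53.8 and 57.9 CPM in sick, against 20.4, 28.6, 25.0 and 38.6 CPM in healthy libraries (1.183 ± 0.33, adjusted p = 0.0332). Among immediate early genes, 2 of 23 members tested rose and 0 fell (median log2 fold change 0.78). Counts in the same order were 3 and 0 without healthy replicate 4, 0 and 0 without sick replicate 2, and 0 to 4 and 0 without any 1 of the others. The calls were Myc (12.3, 5.23 and 7.26 CPM in sick, against 2.94, 4.15, 2.68 and 9.01 CPM in healthy libraries) and Zfp36, which destabilises cytokine mRNAs (73.8, 30.7 and 50.4 CPM in sick, against 9.40, 16.7, 18.9 and 39.9 CPM in healthy libraries). In both genes healthy replicate 4 lay within the sick range. Of metallothioneins and zinc transporters, 1 of 18 members tested rose and 1 fell (median log2 fold change 0.04). Higher and lower calls came to 3 and 1 without healthy replicate 4, 0 and 0 without sick replicate 2, and 0 to 4 and 0 to 2 without any 1 of the others. Its call in the other direction was the zinc importer Slc39a1, at 26.6, 33.5 and 43.7 CPM in sick, against 50.8, 56.4, 48.0 and 57.0 CPM in healthy libraries (-0.65 ± 0.16, adjusted p = 0.0203). Among the 9 genes named here for glucocorticoids, cytokines and zinc, no call held in each of the 7 fits without 1 knock-in library. Lost calls came to 9 genes without sick replicate 2, 8 without sick replicate 3, 6 without healthy replicate 3, 5 without healthy replicate 1, 5 without healthy replicate 2 and Zfp36 without sick replicate 4 (adjusted p 0.0505 to 0.296).

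**Figure D3:**
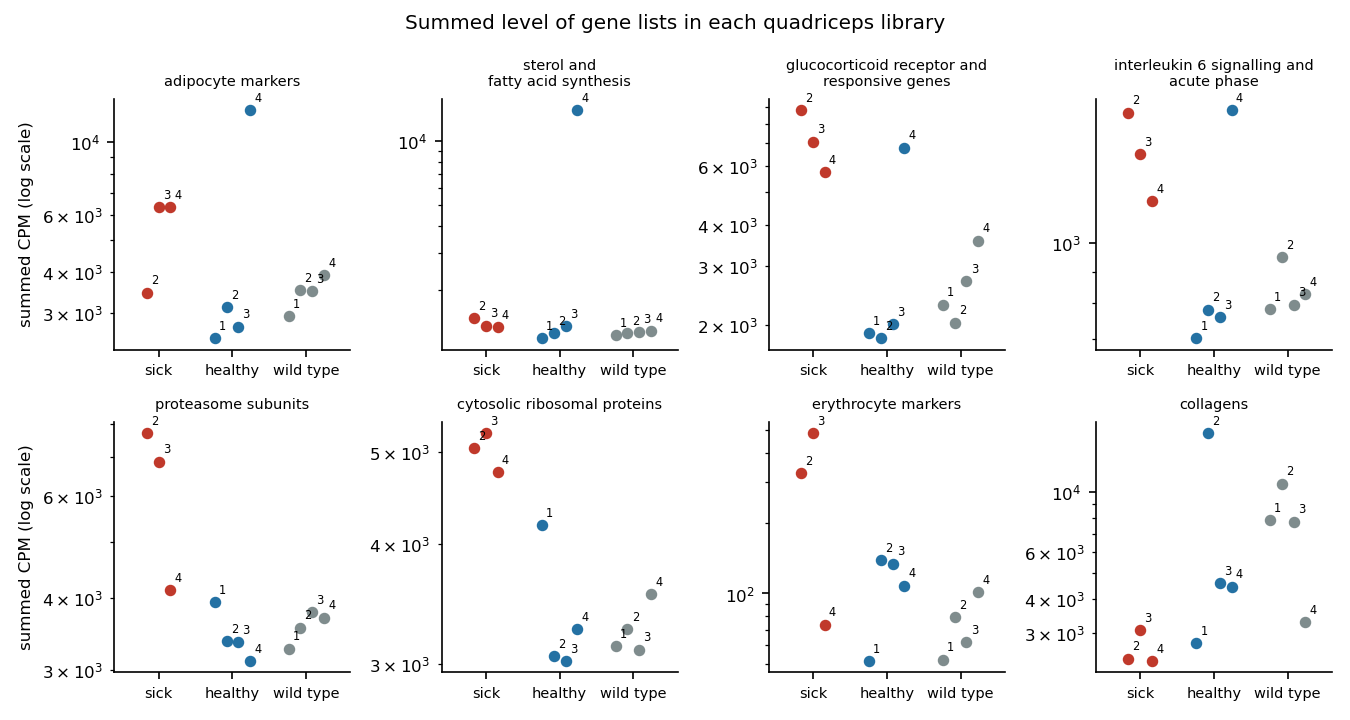
Summed CPM of the genes of 8 lists on a log axis, per quadriceps library of the sick knock-in, healthy knock-in and wild-type groups. Healthy replicate 4 is above the other healthy libraries for adipocyte markers, sterol and fatty acid synthesis, glucocorticoid genes and interleukin 6 signalling, and healthy replicate 2 is highest for collagens.

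The integrated stress response raises the transcription factor ATF4 when translation is limited by amino acid shortage or misfolded protein. In that list 6 of 22 members tested rose and 2 fell (median log2 fold change 0.63). In that order, there were 7 and 1 without healthy replicate 4, 2 and 0 without sick replicate 2, and 2 to 8 and 0 to 3 without any 1 of the others. Atf4 had 600.2, 306 and 245 CPM in sick quadriceps, against 126, 149, 142 and 101 CPM in healthy quadriceps (log2 fold change 1.46 ± 0.27 (SE), adjusted p = 0.0101). Stc2, a secreted glycoprotein induced by stress, had 30.4, 17.6 and 63.8 CPM in sick, against 4.58, 5.31, 2.56 and 8.89 CPM in healthy libraries, and sick replicate 4 was the highest library (2.99 ± 0.47, adjusted p = 0.00686). Ppp1r15a, which ends the response by removing the phosphate from eIF2-alpha, had 274, 102 and 37.1 CPM in sick, against 19.7, 12.9, 24.4 and 18.6 CPM in healthy libraries (2.40 ± 0.62, adjusted p = 0.0268). Trib3, a target of ATF4, had 1.91, 2.30 and 2.12 CPM in sick, against 1.29, 0.869, 0.852 and 1.23 CPM in healthy libraries (1.04 ± 0.26, adjusted p = 0.0224). Among p53 targets and genes of cell-cycle arrest, 6 of 20 members tested rose and 0 fell (median log2 fold change 0.53). Calls in each direction numbered 4 and 1 without healthy replicate 4, 1 and 0 without sick replicate 2, and 3 to 8 and 0 to 1 without any 1 of the others. They numbered 1 and 0 with the 7 knock-in libraries alone. Trp53inp1, a p53 target that acts in autophagy, had 243, 149 and 70.6 CPM in sick, against 16.8, 32.6, 20.2 and 65.5 CPM in healthy libraries (2.26 ± 0.47, adjusted p = 0.0141). Cdkn1b, the inhibitor p27, had 77.0, 63.9 and 53.4 CPM in sick, against 39.7, 40.9, 40.8 and 31.8 CPM in healthy libraries (0.74 ± 0.16, adjusted p = 0.0149).

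Chaperones did not move one way. Of heat shock and J-protein chaperones, 2 of 25 members tested rose and 3 fell (median log2 fold change -0.24). These counts were 1 and 2 without healthy replicate 4, 1 and 0 without sick replicate 2, and 1 to 4 and 1 to 3 without any 1 of the others. Dnajb6, a J-protein of the Z-disc whose human gene is mutated in a limb-girdle dystrophy, had 111, 106 and 73.0 CPM in sick, against 49.7, 41.3, 43.9 and 43.9 CPM in healthy libraries (1.09 ± 0.15, adjusted p = 0.00472). Hspb7, a small heat shock protein that handles filamin, had 2373, 2037 and 272 CPM in sick, against 179, 107, 346 and 86.5 CPM in healthy libraries (2.85 ± 0.75, adjusted p = 0.0284, and 2.55 without healthy replicate 4 with adjusted p = 0.0572). The small heat shock genes Hspb2 (9.04, 14.8 and 13.7 CPM in sick, against 27.6, 26.8, 21.2 and 21.5 CPM in healthy libraries) and Hspb3 (5.93, 9.18 and 11.1 CPM in sick, against 22.0, 20.2, 17.6 and 11.7 CPM in healthy libraries) fell, with log2 fold changes of -1.01 and -1.10. In the endoplasmic reticulum list 4 of 21 members tested rose and 1 fell (median log2 fold change -0.23). Rising and falling members numbered 3 and 0 without healthy replicate 4, 0 and 0 without sick replicate 2, and 2 to 5 and 0 to 2 without any 1 of the others. Ern1, the sensor IRE1, had 51.1, 25.1 and 23.99 CPM in sick, against 9.40, 13.5, 16.4 and 14.6 CPM in healthy libraries. Its target Xbp1 had 119, 85.3 and 96.3 CPM in sick, against 58.9, 70.2, 59.4 and 86.5 CPM in healthy libraries. The co-chaperone gene Dnajb9 had 86.0, 49.9 and 66.3 CPM in sick, against 35.4, 35.9, 35.8 and 36.04 CPM in healthy libraries. P4hb, a disulfide isomerase, had 259.9, 271 and 269.8 CPM in sick, against 203, 238, 183 and 173 CPM in healthy libraries. Their log2 fold changes were 1.24, 0.55, 0.89 and 0.43. Of the 14 stress and chaperone genes named, the call of Stc2, Atf4 and Dnajb6 held in each of the 7 fits without 1 knock-in library. Of the others, 11 genes without sick replicate 2, 6 without sick replicate 3, 5 without healthy replicate 2, 5 without healthy replicate 3, 3 without healthy replicate 1 and 2 without healthy replicate 4 missed 0.05 (adjusted p 0.0504 to 0.198).

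Cytosolic ribosomal proteins were the list with the largest share of calls. Here 27 of 32 members tested rose and 0 fell (median log2 fold change 0.56). Corresponding counts were 20 and 0 without healthy replicate 4, 0 and 0 without sick replicate 2, and 3 to 29 and 0 without any 1 of the others. The differences were small in size, between 0.16 and 0.83 on the log2 scale, and 0 of the 32 passed in a fit of the 7 knock-in libraries alone, where the median was 0.54. Rpl4 had 728, 693 and 672 CPM in sick quadriceps, against 529, 385, 402 and 439.8 CPM in healthy quadriceps (log2 fold change 0.67 ± 0.14 (SE), adjusted p = 0.0126). Rps6, the ribosomal protein phosphorylated below mTORC1, had 112, 108 and 98.2 CPM in sick, against 82.1, 64.2, 64.0 and 72.3 CPM in healthy libraries (0.59 ± 0.12, adjusted p = 0.0126). Rps9 had 236, 245 and 182 CPM in sick, against 165, 111, 120.4 and 104 CPM in healthy libraries. Rpl10a had 127, 149 and 126 CPM in sick, against 108, 69.0, 71.1 and 81.2 CPM in healthy libraries. The summed level was 5042, 5231 and 4758 CPM in sick, against 4187, 3054, 3020 and 3263 CPM in healthy libraries, without overlap. Many of these genes have processed copies in the genome, so that the counts of single members are uncertain. Of the 4 named, no call held in each of the 7 fits without 1 knock-in library. By library, 4 genes without sick replicate 2 and 2 without sick replicate 3 missed 0.05 (adjusted p 0.0508 to 0.0724).

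In the circadian clock list 3 of 19 members tested rose and 1 fell (median log2 fold change 0.30). Counts in the same order were 3 and 1 without healthy replicate 4, 1 and 0 without sick replicate 2, and 1 to 4 and 0 to 3 without any 1 of the others. Rora, a nuclear receptor that activates clock genes, had 389.5, 244 and 149 CPM in sick, against 93.9, 78.7, 102 and 106 CPM in healthy libraries (1.35 ± 0.25, adjusted p = 0.00999). Cry2, a repressor of the clock, had 313, 128 and 44.3 CPM in sick, against 39.0, 21.7, 33.5 and 39.0 CPM in healthy libraries (1.90 ± 0.52, adjusted p = 0.0317). Bhlhe41, another repressor, had 4.14, 8.42 and 24.7 CPM in sick, against 78.7, 35.3, 77.8 and 36.2 CPM in healthy libraries (-2.56 ± 0.57, adjusted p = 0.0169). The labels give no hour of sampling. Of these 3 clock genes, the call of Rora held in each of the 7 fits without 1 knock-in library. The 0.05 threshold was missed by 2 genes without sick replicate 2, 2 without sick replicate 3, Cry2 without healthy replicate 1, Cry2 without healthy replicate 2 and Cry2 without healthy replicate 3 (adjusted p 0.0511 to 0.112).

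In the list of polyamine, methyl group, serine and NAD metabolism, lower calls outnumbered higher ones: 2 of 28 members tested rose and 7 fell (median log2 fold change -0.30). Higher and lower calls came to 2 and 6 without healthy replicate 4, 0 and 1 without sick replicate 2, and 0 to 3 and 4 to 9 without any 1 of the others. Amd1, which makes the aminopropyl donor for spermidine and spermine, had 10.3, 9.57 and 118 CPM in sick quadriceps, against 308, 165, 375 and 399.7 CPM in healthy quadriceps. Sick replicates 2 and 3 were more than 10 times below every healthy library, and sick replicate 4 was below the lowest one (log2 fold change -3.68 ± 0.71 (SE), adjusted p = 0.0117, and -3.55 without healthy replicate 4 with adjusted p = 0.0224). Azin1, which protects ornithine decarboxylase from degradation, had 20.1, 17.4 and 29.3 CPM in sick, against 46.4, 72.0, 59.4 and 55.4 CPM in healthy libraries (-1.40 ± 0.23, adjusted p = 0.00724). Mat2a, which makes S-adenosylmethionine, had 85.6, 81.1 and 129 CPM in sick, against 181, 204, 202 and 224 CPM in healthy libraries (-1.06 ± 0.20, adjusted p = 0.0108). With Nmrk2, given above, these are the 4 of lowest p in the list.

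In sterol and fatty acid synthesis, lower calls outnumbered higher ones: 2 of 26 members tested rose and 7 fell (median log2 fold change -0.86). In that order, there were 3 and 7 without healthy replicate 4, 0 and 2 without sick replicate 2, and 0 to 2 and 5 to 8 without any 1 of the others. Hmgcs1, an early enzyme of the cholesterol route, had 22.8, 21.6 and 26.9 CPM in sick, against 35.7, 48.2, 40.5 and 49.6 CPM in healthy libraries (-0.86 ± 0.15, adjusted p = 0.0083). Idi1, further along it, had 2.99, 3.57 and 7.51 CPM in sick, against 9.40, 12.4, 12.2 and 18.3 CPM in healthy libraries (-1.56 ± 0.30, adjusted p = 0.011). Srebf1, the transcription factor of lipid synthesis, had 42.7, 52.3 and 82.3 CPM in sick, against 104, 133, 112 and 117 CPM in healthy libraries (-1.03 ± 0.21, adjusted p = 0.0129). Scd2, a fatty acid desaturase, had 30.8, 29.6 and 20.2 CPM in sick, against 59.2, 214, 122 and 168 CPM in healthy libraries (-2.27 ± 0.37, adjusted p = 0.00724). In these 4 genes the ranges did not overlap, which their choice by p favoured. The sum over the whole list was 1482, 1364 and 1346 CPM in sick, against 1193, 1257, 1354 and 13930 CPM in healthy libraries, with healthy replicate 4 far above every other library and the sick libraries within or just above the range of healthy replicates 1 to 3. Of the 7 genes named for polyamines, methyl groups and lipids, the call of Azin1, Scd2 and Hmgcs1 held in each of the 7 fits without 1 knock-in library. Calls were lost for 4 genes without sick replicate 2 (adjusted p 0.0555 to 0.0787).

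In nuclear oxidative phosphorylation 0 of 40 members tested rose and 4 fell (median log2 fold change -0.23). Calls in each direction numbered 0 and 6 without healthy replicate 4, 0 and 2 without sick replicate 2, and 0 and 2 to 9 without any 1 of the others. Cycs, cytochrome c, had 111, 120.0 and 145 CPM in sick quadriceps, against 228, 197, 214 and 202 CPM in healthy quadriceps (log2 fold change -0.75 ± 0.12 (SE), adjusted p = 0.00688). Ndufs1, the largest subunit of complex I, had 196, 216 and 248 CPM in sick, against 371, 326, 414 and 381 CPM in healthy libraries (-0.76 ± 0.14, adjusted p = 0.00893). Ndufb3 of the same complex had 36.4, 37.9 and 38.4 CPM in sick, against 65.3, 50.2, 59.6 and 54.9 CPM in healthy libraries. Cyc1 of complex III had 267, 295 and 342 CPM in sick, against 431, 364, 485 and 404 CPM in healthy libraries. All 12 mitochondrial genome genes tested had a negative fold change, against 6978 of 13799 over all genes. In that list 0 of 12 members tested rose and 3 fell (median log2 fold change -0.71). These counts were 0 and 3 without healthy replicate 4, 0 and 0 without sick replicate 2, and 0 and 0 to 7 without any 1 of the others. They were 0 and 0 of 11 tested with the 7 knock-in libraries alone. Of the mitochondrial genes, mt-Nd6 had 1861, 1690 and 2335 CPM in sick, against 3191, 2470, 3102 and 2948 CPM in healthy libraries (-0.58 ± 0.16, adjusted p = 0.028). The other calls, mt-Atp6 and mt-Co3, had under 11 CPM in every library, and their counts are uncertain, since the nuclear genome holds copies of mitochondrial genes. The share of all counted reads from the mitochondrial genome was 6.55, 4.79 and 6.69% in sick, against 8.57, 6.94, 12.4 and 10.2% in healthy libraries. Of fatty acid oxidation and PPAR targets, 1 of 32 members tested rose and 1 fell (median log2 fold change 0.08). Rising and falling members numbered 4 and 0 without healthy replicate 4, 0 and 0 without sick replicate 2, and 0 to 5 and 0 to 2 without any 1 of the others. These were the nuclear receptor gene Ppard (0.65 ± 0.18, adjusted p = 0.0309) and Acads, a dehydrogenase of short fatty acids (-0.52 ± 0.17, adjusted p = 0.0498).

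In glycolysis and glycogen 3 of 28 members tested rose and 4 fell (median log2 fold change -0.02). Corresponding counts were 1 and 4 without healthy replicate 4, 1 and 0 without sick replicate 2, and 1 to 4 and 0 to 9 without any 1 of the others. Fbp2, the muscle fructose bisphosphatase, had 33.5, 67.3 and 34.3 CPM in sick, against 9.63, 16.5, 12.4 and 11.2 CPM in healthy libraries (1.75 ± 0.33, adjusted p = 0.0103). Gpi1, an isomerase of glycolysis, had 1035, 1344 and 1229 CPM in sick, against 995, 749.9, 677 and 737 CPM in healthy libraries (0.61 ± 0.16, adjusted p = 0.0265). Gyg, which primes glycogen, had 475, 536 and 477 CPM in sick, against 396, 267, 346 and 242 CPM in healthy libraries (0.70 ± 0.18, adjusted p = 0.0268). Groups overlapped in none of the 3, which their choice by p favoured. A second identifier named Aldoa (ENSMUSG00000114515) also passed, with 3.54, 5.74 and 27.0 CPM in sick, against 37.2, 26.7, 48.1 and 39.7 CPM in healthy libraries. The main identifier of the gene (ENSMUSG00000030695) had 13380, 16260 and 21050 CPM in sick, against 16120, 12190, 14380 and 13550 CPM in healthy libraries, and reads of the 2 cannot be told apart with certainty. The remaining calls, Tpi1, Pgam2 and Phkg1, were lower and were named after their values were seen. Leaving Aldoa, mt-Atp6 and mt-Co3 aside, among the 10 called energy genes named, the call of Cycs, Ndufs1 and Fbp2 held in each of the 7 fits without 1 knock-in library. No longer past 0.05 were 7 genes without sick replicate 2, 7 without sick replicate 3, 6 without healthy replicate 3, 4 without healthy replicate 1, 4 without healthy replicate 4, 3 without healthy replicate 2 and Acads without sick replicate 4 (adjusted p 0.0516 to 0.186).

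Structural genes of the sarcomere moved both ways. In the list 6 of 30 members tested rose and 3 fell (median log2 fold change 0.34). Counts in the same order were 4 and 4 without healthy replicate 4, 1 and 0 without sick replicate 2, and 4 to 9 and 1 to 3 without any 1 of the others. Ankrd1, a stretch-responsive protein of the titin spring, had 86.3, 84.3 and 36.5 CPM in sick quadriceps, against 13.9, 11.01, 7.89 and 5.31 CPM in healthy quadriceps (log2 fold change 2.86 ± 0.40 (SE), adjusted p = 0.0049, and 2.65 without healthy replicate 4 with adjusted p = 0.00783). Flnc, filamin C of the Z-disc, had 3464, 2700 and 1200 CPM in sick, against 639, 498, 869 and 505 CPM in healthy libraries (1.89 ± 0.36, adjusted p = 0.0111). Myot, encoding myotilin, had 2601, 2451 and 1474 CPM in sick, against 1055, 1003, 1183 and 825 CPM in healthy libraries (1.08 ± 0.20, adjusted p = 0.0104). The fast myosin gene Myh4 had 38770, 65640 and 63820 CPM in sick, against 52070, 66080, 41820 and 43800 CPM in healthy libraries. Skeletal actin Acta1 had 25730, 47900 and 45650 CPM in sick, against 43030, 44290, 37680 and 35720 CPM in healthy libraries. Both overlapped between the groups and did not pass (adjusted p = 0.715 and 0.899). Of myosin heavy chains and other fibre-type genes, 0 of 28 members tested rose and 1 fell (median log2 fold change 0.34). Higher and lower calls came to 0 and 0 without healthy replicate 4, 0 and 0 without sick replicate 2, and 0 to 6 and 0 to 2 without any 1 of the others. The call was Casq1.

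Calcium release and reuptake held lower calls alone: 0 of 21 members tested rose and 5 fell (median log2 fold change -0.23). In that order, there were 0 and 6 without healthy replicate 4, 0 and 0 without sick replicate 2, and 0 to 2 and 0 to 7 without any 1 of the others. With the 7 knock-in libraries alone there were 0 and 0. Jph2, which ties the tubules to the calcium store, had 127, 208 and 845 CPM in sick, against 1238, 1128, 1147 and 999.5 CPM in healthy libraries (-1.99 ± 0.50, adjusted p = 0.0244). Stac3, an adaptor of the voltage sensor, had 64.7, 91.1 and 154 CPM in sick, against 274, 273, 219 and 184 CPM in healthy libraries (-1.28 ± 0.27, adjusted p = 0.0146). Casq1, the calcium buffer of fast fibres, had 462, 1537 and 2330 CPM in sick, against 4083, 5876, 2704 and 3109 CPM in healthy libraries (-1.65 ± 0.48, adjusted p = 0.0389, and -1.79 without healthy replicate 4 with adjusted p = 0.0507). Hrc, a calcium-binding protein of the store, had 617, 689 and 806 CPM in sick, against 1300, 1100, 1011 and 815 CPM in healthy libraries (-0.57 ± 0.16, adjusted p = 0.0338). The pump gene Atp2a1 had 23240, 30070 and 36980 CPM in sick, against 31320, 25810, 25680 and 23390 CPM in healthy libraries, and did not pass (adjusted p = 0.529). Of the 7 called genes named for sarcomere and calcium, the call of Ankrd1 held in each of the 7 fits without 1 knock-in library. Past calls failed for 6 genes without sick replicate 2, 4 without sick replicate 3, 3 without healthy replicate 1, 3 without healthy replicate 2, 3 without healthy replicate 3 and Casq1 without healthy replicate 4 (adjusted p 0.0507 to 0.134).

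At the membrane, the dystrophin complex links the cytoskeleton to the matrix, and its dystroglycan carries sugars. There 4 of 23 members tested rose and 2 fell (median log2 fold change 0.04). Calls in each direction numbered 3 and 3 without healthy replicate 4, 1 and 0 without sick replicate 2, and 1 to 4 and 0 to 4 without any 1 of the others. Nos1, the nitric oxide synthase anchored by the complex, had 85.2, 111 and 89.2 CPM in sick quadriceps, against 23.5, 14.7, 35.3 and 20.1 CPM in healthy quadriceps, and wild-type quadriceps averaged 41.5 ± 9.38 CPM (log2 fold change 2.02 ± 0.28 (SE), adjusted p = 0.00464). Dmd, dystrophin itself, had 268, 279.6 and 182 CPM in sick, against 159.8, 164, 159 and 137 CPM in healthy libraries (0.63 ± 0.16, adjusted p = 0.0227). Sgcd, a sarcoglycan, had 13.6, 13.9 and 14.2 CPM in sick, against 20.6, 19.6, 29.1 and 30.1 CPM in healthy libraries (-0.83 ± 0.21, adjusted p = 0.0224). Sspn, sarcospan, had 47.8, 60.0 and 68.5 CPM in sick, against 91.4, 105, 98.3 and 69.9 CPM in healthy libraries (-0.63 ± 0.18, adjusted p = 0.0332). At the neuromuscular junction 0 of 19 members tested rose and 3 fell (median log2 fold change 0.10). These counts were 1 and 4 without healthy replicate 4, 0 and 1 without sick replicate 2, and 0 to 4 and 1 to 4 without any 1 of the others. Nrep, a protein of regenerating nerve and muscle, had 5.61, 15.6 and 42.8 CPM in sick, against 106, 278, 186 and 152 CPM in healthy libraries (-3.54 ± 0.56, adjusted p = 0.00688). Chrne, the adult subunit of the acetylcholine receptor, had 3.92, 6.51 and 8.81 CPM in sick, against 11.3, 13.9, 11.9 and 11.5 CPM in healthy libraries (-1.06 ± 0.26, adjusted p = 0.0226). Ache, acetylcholinesterase, had 5.77, 13.3 and 29.3 CPM in sick, against 28.4, 36.01, 32.7 and 28.4 CPM in healthy libraries (-1.35 ± 0.40, adjusted p = 0.0406). Of the 7 genes named at the membrane and junction, the call of Nos1 and Nrep held in each of the 7 fits without 1 knock-in library. Lost calls came to 5 genes without healthy replicate 3, 5 without sick replicate 2, 5 without sick replicate 3, 2 without healthy replicate 1 and 2 without healthy replicate 2 (adjusted p 0.0514 to 0.199).

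Of the 22 collagens 20 had a negative fold change, against 6978 of 13799 over all genes, and few passed. Of that list 0 of 22 members tested rose and 2 fell (median log2 fold change -0.89). Rising and falling members numbered 0 and 2 without healthy replicate 4, 0 and 0 without sick replicate 2, and 0 and 1 to 3 without any 1 of the others. Of other matrix genes 0 of 31 members tested rose and 3 fell (median log2 fold change -0.13). Corresponding counts were 0 and 4 without healthy replicate 4, 0 and 0 without sick replicate 2, and 0 and 2 to 4 without any 1 of the others. Shares of lower calls, 9.09% of collagens and 9.68% of other matrix genes, were near the 7.51% of all genes. By calls, neither list stood apart from all genes tested. Col15a1, a collagen of basement membranes, had 26.6, 14.0 and 24.1 CPM in sick, against 57.1, 168, 75.6 and 65.4 CPM in healthy libraries (-1.94 ± 0.41, adjusted p = 0.0144). Col6a2 had 58.4, 88.4 and 94.5 CPM in sick, against 114, 430.3, 178 and 188 CPM in healthy libraries (-1.35 ± 0.41, adjusted p = 0.0441, and -1.42 without healthy replicate 4 with adjusted p = 0.0616). P4ha1, which hydroxylates collagen, had 24, 27.2 and 39.2 CPM in sick, against 74.0, 90.6, 72.3 and 78.2 CPM in healthy libraries (-1.42 ± 0.30, adjusted p = 0.0148). The collagen chaperone gene Serpinh1 had 42.5, 54.2 and 55.0 CPM in sick, against 80.1, 274, 124 and 203 CPM in healthy libraries (-1.62 ± 0.38, adjusted p = 0.0196). The sum over collagens was 2405, 3074 and 2358 CPM in sick, against 2745, 16570, 4601 and 4453 CPM in healthy libraries, with healthy replicate 2 far above the others and healthy replicate 1 within the sick range. Of markers of fibro-adipogenic progenitors, 0 of 14 members tested rose and 3 fell (median log2 fold change -0.44). Counts in the same order were 0 and 3 without healthy replicate 4, 0 and 0 without sick replicate 2, and 0 to 1 and 2 to 3 without any 1 of the others. The calls were Col15a1, Lum (10.3, 25.4 and 25.5 CPM in sick, against 48.3, 96.4, 48.7 and 41.8 CPM in healthy libraries) and Smoc2 (30.6, 38.0 and 78.9 CPM in sick, against 90.6, 142, 98.7 and 91.7 CPM in healthy libraries). Dcn had 521, 676 and 516 CPM in sick, against 398, 786, 602 and 460.3 CPM in healthy libraries and did not pass (adjusted p = 0.824). In bulk tissue, fewer cells of a type and less RNA per cell cannot be told apart. In cell cycle and proliferation 0 of 19 members tested rose and 3 fell (median log2 fold change -0.56). Higher and lower calls came to 0 and 5 without healthy replicate 4, 0 and 0 without sick replicate 2, and 0 to 2 and 0 to 6 without any 1 of the others. The lower genes were Mcm2 (2.45, 1.66 and 4.49 CPM in sick, against 5.64, 5.31, 6.75 and 6.91 CPM in healthy libraries), Ccnd1 (1.96, 2.55 and 3.51 CPM in sick, against 3.99, 13.3, 8.87 and 6.91 CPM in healthy libraries) and Top2a (0.272, 0.765 and 0.816 CPM in sick, against 1.29, 6.57, 2.46 and 2.71 CPM in healthy libraries). Of the 9 genes named for matrix and division, no call held in each of the 7 fits without 1 knock-in library. By library, 9 genes without sick replicate 2, 6 without sick replicate 3, 4 without healthy replicate 3, Col6a2 without healthy replicate 2 and Col6a2 without healthy replicate 4 missed 0.05 (adjusted p 0.0533 to 0.222).

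Interferons act through STAT and IRF factors that bind gamma-activated sites and interferon-stimulated response elements. For interferon response and antigen presentation, 29 of 31 members tested had a negative fold change, against 6978 of 13799 over all genes, and 0 of 31 members tested rose and 3 fell (median log2 fold change -0.73). In that order, there were 0 and 4 without healthy replicate 4, 0 and 1 without sick replicate 2, and 0 and 1 to 5 without any 1 of the others. Summed over the list, the genes had 393, 576 and 497 CPM in sick, against 881, 652, 586 and 1441 CPM in healthy libraries. Healthy replicate 4 was by far the highest, and healthy replicate 3 was close to sick replicate 3. Without healthy replicate 4 the median log2 fold change was -0.65. The share of lower calls, 9.68%, was near the 7.51% of all genes. The median of the list was -0.25 for sick over wild type and 0.43 for healthy knock-in over wild type, on the log2 scale. Against wild type, 3 of its members were lower in sick and 0 in healthy knock-in quadriceps, where 7.49% and 0.0145% of all genes were. Igtp, an immunity-related GTPase, had 1.80, 3.32 and 3.43 CPM in sick quadriceps, against 15.2, 13.1, 16.1 and 11.97 CPM in healthy quadriceps, and wild-type quadriceps averaged 8.95 ± 2.84 CPM (log2 fold change -2.46 ± 0.32 (SE), adjusted p = 0.0036, and -2.55 without healthy replicate 4 with adjusted p = 0.00432). Gbp7, a guanylate-binding protein, had 5.22, 14.0 and 14.5 CPM in sick, against 26.2, 33.8, 17.3 and 33.7 CPM in healthy libraries (-1.45 ± 0.36, adjusted p = 0.0233). The transcription factor gene Irf1 had 6.42, 6.25 and 4.24 CPM in sick, against 10.5, 9.37, 8.11 and 13.7 CPM in healthy libraries (-0.80 ± 0.22, adjusted p = 0.0331). The ranges of these called genes did not overlap, which their choice as called genes favoured. Irgm2, another immunity-related GTPase, which is not on the list and was chosen after its values were seen, had 3.54, 4.72 and 3.92 CPM in sick, against 19.1, 19.5, 18.3 and 18.4 CPM in healthy libraries (-2.25 ± 0.22, adjusted p = 0.00219). Of the 3 calls of the list, the call of Igtp held in each of the 7 fits without 1 knock-in library. Among the rest, 2 genes without healthy replicate 2, 2 without sick replicate 2, Irf1 without healthy replicate 1, Irf1 without sick replicate 3 and Irf1 without sick replicate 4 missed 0.05 (adjusted p 0.0512 to 0.128).

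The promoters of the 3 called interferon genes are shown for the interferon motifs they hold. They are RefSeq windows on GRCm38.p6 from 250 bases before to 50 after the start, on the plus strand, at chr11:58199306-58199605 for Igtp, chr3:142530086-142530385 for Gbp7 and chr11:53769764-53770063 for Irf1. Capitals mark matches, on either strand, to the gamma-activated site TTCNNNGAA and to the interferon-stimulated response element core GAAANNGAA.
Igtp: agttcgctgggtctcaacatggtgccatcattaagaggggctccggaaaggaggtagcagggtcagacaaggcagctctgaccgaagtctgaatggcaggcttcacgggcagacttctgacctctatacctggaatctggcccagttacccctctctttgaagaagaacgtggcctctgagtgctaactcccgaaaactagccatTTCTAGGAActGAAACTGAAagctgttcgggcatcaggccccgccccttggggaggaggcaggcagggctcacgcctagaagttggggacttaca
Gbp7: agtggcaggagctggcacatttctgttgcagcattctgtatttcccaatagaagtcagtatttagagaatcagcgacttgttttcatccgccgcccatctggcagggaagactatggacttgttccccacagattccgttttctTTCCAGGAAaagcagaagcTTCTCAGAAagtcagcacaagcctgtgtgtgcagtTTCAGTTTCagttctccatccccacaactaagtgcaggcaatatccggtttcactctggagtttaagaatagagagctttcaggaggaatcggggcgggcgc
Irf1: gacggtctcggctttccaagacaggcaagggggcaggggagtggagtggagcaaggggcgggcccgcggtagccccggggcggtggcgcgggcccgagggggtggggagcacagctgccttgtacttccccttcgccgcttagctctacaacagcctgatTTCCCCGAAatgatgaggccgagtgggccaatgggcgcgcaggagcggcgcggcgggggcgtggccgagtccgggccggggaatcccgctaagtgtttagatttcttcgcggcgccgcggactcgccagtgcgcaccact
Igtp holds the first motif from position -45 and the second from -34, which do not overlap. Gbp7 holds the first from -106 and from -87 and the second, read on the other strand, from -52, and Irf1 holds the first from -90. A second Irf1 window, for another start, holds neither. Over the 28 windows of 24 genes of the list, 21.4% hold the first motif and 39.3% the second, against 8.30% and 8.56% of all 32851 windows. A match describes the letters and is not a measured site.

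Among adipocyte markers 1 of 17 members tested rose and 1 fell (median log2 fold change -0.44). Calls in each direction numbered 2 and 1 without healthy replicate 4, 0 and 0 without sick replicate 2, and 0 to 1 and 0 to 2 without any 1 of the others. The calls were Lep and Plin4, and the median log2 fold change turned from -0.44 to 0.53 when healthy replicate 4 was left out and to 0.50 when sick replicate 2 was left out. Macrophage markers gave 1 higher and 1 lower call of 19: the scavenger receptor gene Cd163 had 64.4, 85.3 and 59.8 CPM in sick, against 19.1, 31.4, 20.4 and 56.4 CPM in healthy libraries (1.298 ± 0.34, adjusted p = 0.0271). Trem2 had 0.816, 0.255 and 0.734 CPM in sick, against 3.99, 0.869, 3.03 and 2.96 CPM in healthy libraries (-1.95 ± 0.58, adjusted p = 0.0397). Without any 1 library the macrophage list gave 0 to 3 higher and 0 to 2 lower calls. Against wild type, 6 of its 19 members were higher in sick quadriceps and 0 in healthy knock-in quadriceps (over all genes 10.5% and 0.0217%), with median log2 fold changes of 0.75 and 0.67. The abundant macrophage gene Lyz2 had 144, 212 and 101 CPM in sick, against 119, 84.4, 124 and 98.0 CPM in healthy libraries (adjusted p = 0.212). Of tendon markers 0 of 12 members tested rose and 2 fell (median log2 fold change -1.38). These counts were 0 and 5 without healthy replicate 4, 0 and 0 without sick replicate 2, and 0 and 0 without any 1 of the others. Calls fell on Comp (2.72, 14.4 and 4.57 CPM in sick, against 24.2, 60.6, 85.5 and 9.38 CPM in healthy libraries) and Kera (0.980, 10.6 and 1.88 CPM in sick, against 21.6, 137, 59.3 and 9.13 CPM in healthy libraries), in which healthy replicate 4 overlapped the sick libraries. Satellite cell markers gave 1 call, Cdh15, a cadherin of muscle precursors, with 43.7, 38.9 and 24.4 CPM in sick, against 24.1, 16.4, 20.04 and 13.9 CPM in healthy libraries (0.91 ± 0.22, adjusted p = 0.021). Endothelial markers gave 1 call too, the receptor gene Kdr (24.2, 40.4 and 23.8 CPM in sick, against 48.3, 36.9, 79.0 and 58.5 CPM in healthy libraries). Schwann cell markers gave Ngfr alone. The 10 erythrocyte markers found summed to 326, 485 and 73.7 CPM in sick, against 51.5, 139, 134 and 108 CPM in healthy libraries, so 2 of 3 sick libraries were high, and 0 of 6 tested passed (median log2 fold change 1.12). Without sick replicate 4 all 6 passed and were higher, with a median of 1.94. Smooth muscle and neutrophil markers gave 0 calls. Without sick replicate 4, 2 of 4 neutrophil markers tested were higher, and smooth muscle markers gave 1 higher and 1 lower call of 14 without healthy replicate 1 and 1 lower call without healthy replicate 4. Satellite cell markers gave 0 to 2 higher and 0 to 1 lower calls without any 1 library, and endothelial markers 0 to 1 lower calls. The 10 kidney markers summed to under 16 CPM in every sick and healthy library, and no lymphocyte marker was abundant enough to test. Whether these cells have a part in the results above was not tested. Among the 6 called markers named here, no call held in each of the 7 fits without 1 knock-in library. The 0.05 threshold was missed by 6 genes without sick replicate 2, 5 without healthy replicate 1, 5 without healthy replicate 3, 5 without sick replicate 3, 4 without healthy replicate 2, 4 without sick replicate 4 and Kdr without healthy replicate 4 (adjusted p 0.0506 to 0.225).

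**Figure D4:**
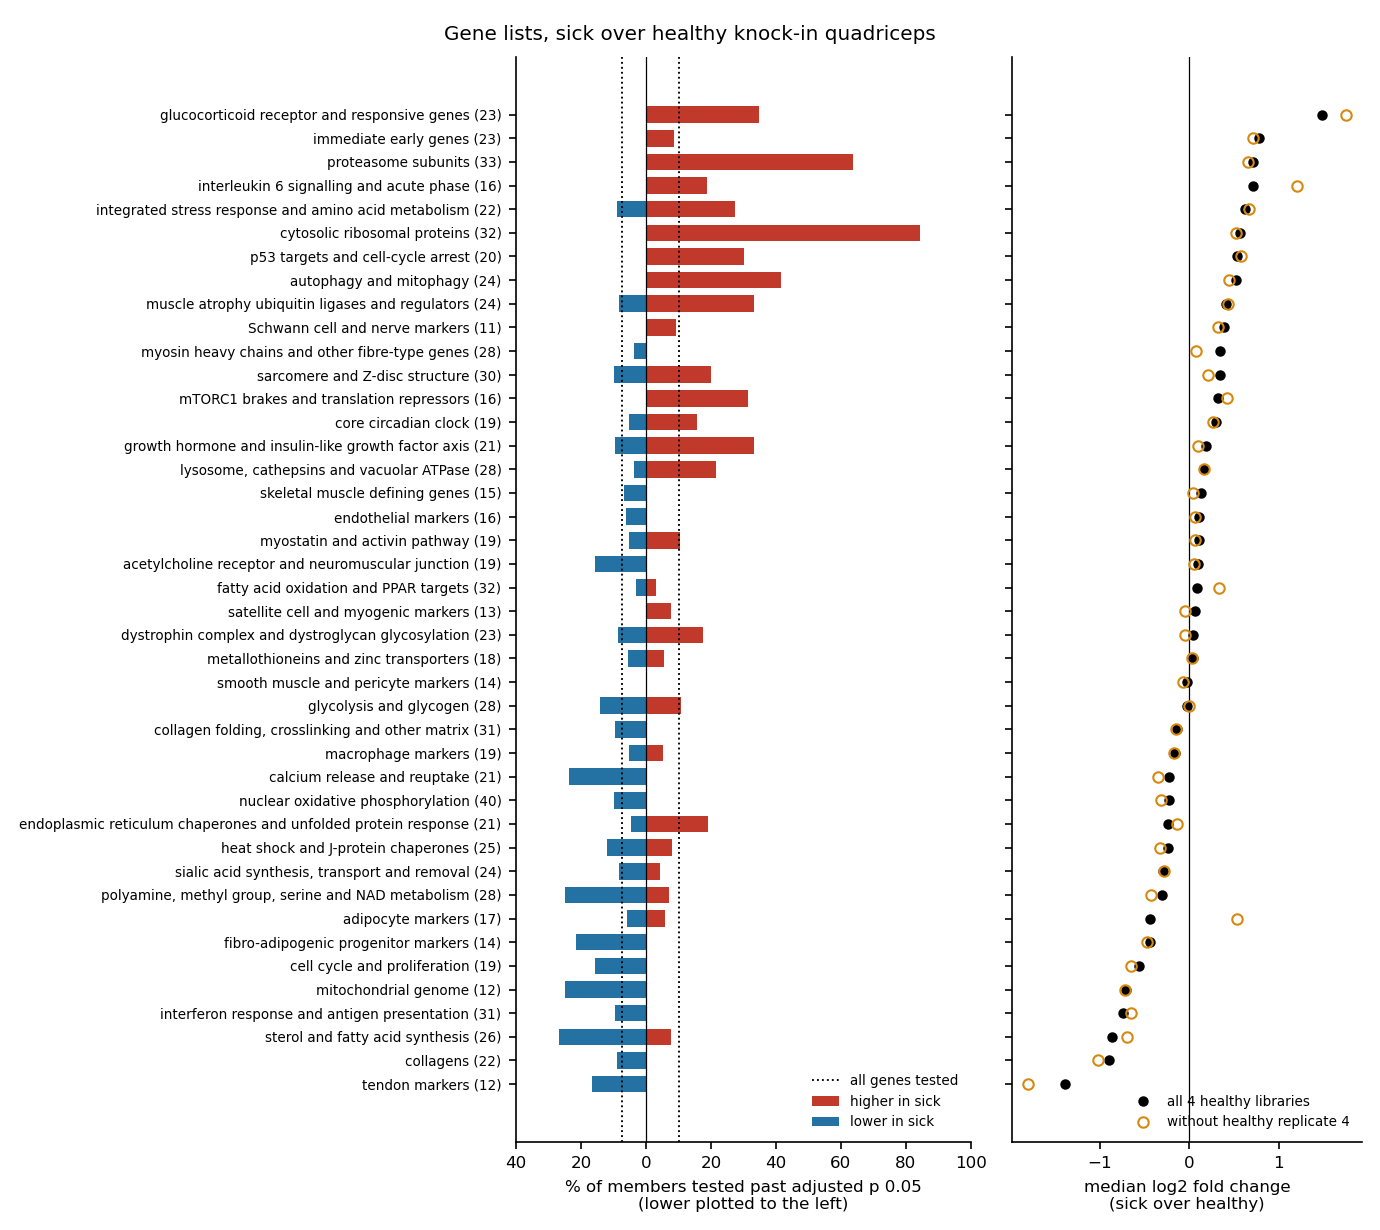
Left, the share of tested members of each list (number in brackets) that were higher (right of 0) or lower (left of 0) in sick than in healthy knock-in quadriceps at adjusted p under 0.05, with dotted lines at the shares over all genes tested (10.1% higher, 7.51% lower). Right, the median log2 fold change of the list with all 4 healthy libraries (filled) and without healthy replicate 4 (open), which changes most for adipocyte markers, from -0.44 to 0.53.

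The same comparison could be made in the gastrocnemius, with 3 sick and 3 healthy libraries, and in the tibialis, with 3 and 4. A model of all 32 libraries tested the difference between muscles itself. For quadriceps minus gastrocnemius 0 of 15229 genes passed in limma (264 at an unadjusted p under 0.05, lowest adjusted p 0.9997), and for quadriceps minus tibialis 0 passed (418, lowest adjusted p 0.592). A difference that missed the threshold does not show equal change. Of the 2431 quadriceps calls, 1180 (48.5%) were also called with the same sign in gastrocnemius, which is 59.3% of its 1991 calls. With tibialis 921 (37.9%) were shared, 56.0% of its 1646 calls, and 0 calls were opposite in either muscle. Over all genes tested, 1991 of 14155 were called in gastrocnemius and 1646 of 14520 in tibialis. In all 3 muscles 600 genes were called, 328 higher and 272 lower. The libraries of different muscles may come from the same mice. Sesn1 rose in gastrocnemius (4.06 on the log2 scale, adjusted p = 0.00093) and in tibialis (3.26, adjusted p = 0.0101). Amd1 fell by 5.58 on the log2 scale in gastrocnemius (adjusted p = 0.0013) and had -2.84 in tibialis (adjusted p = 0.0187). Igtp fell by 2.31 in gastrocnemius (adjusted p = 0.00696) and by 2.003 in tibialis (adjusted p = 0.0266). Ankrd1 had the lowest p of the difference between quadriceps and tibialis, chosen after its values were seen. Its log2 fold change was 2.86 in quadriceps, 4.10 in gastrocnemius (adjusted p = 0.0013) and -1.54 in tibialis (adjusted p = 0.205), and the difference between quadriceps and tibialis was 4.39 (adjusted p = 0.592). Nos1 had 1.13 in gastrocnemius and 0.72 in tibialis, neither past the threshold (adjusted p = 0.148 and 0.133).

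**Figure D5:**
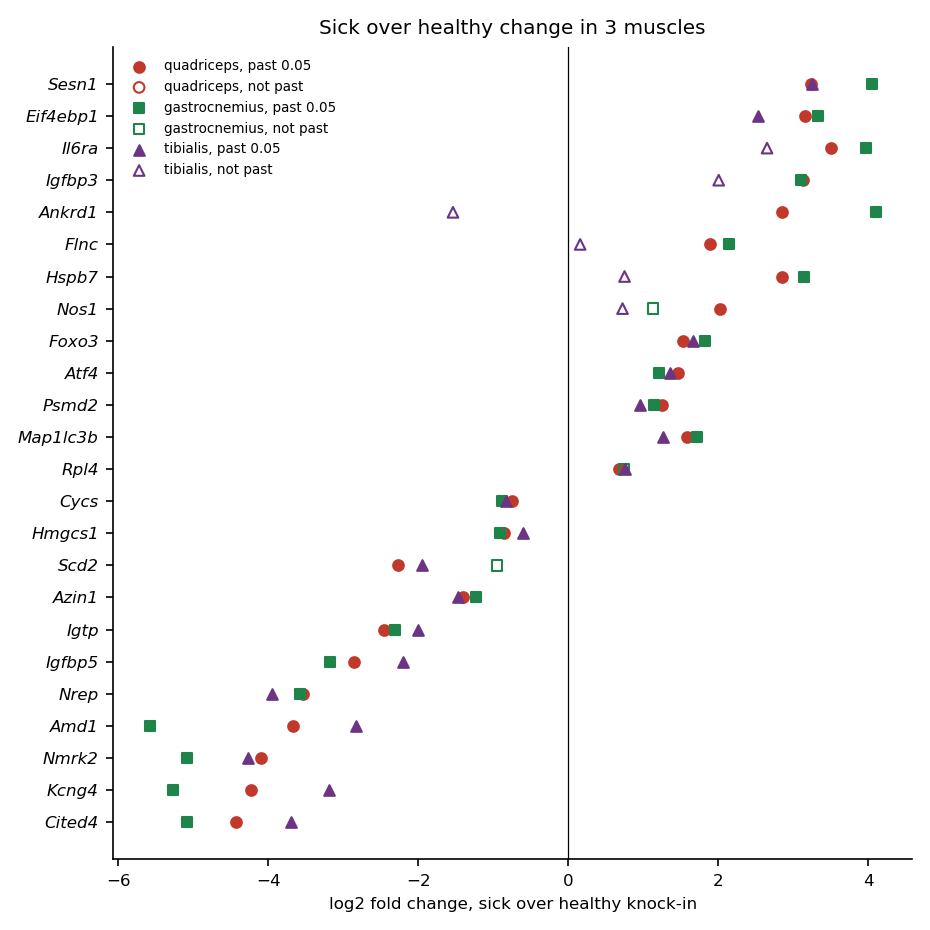
Log2 fold change of sick over healthy knock-in mice for 24 named genes in quadriceps (circles), gastrocnemius (squares) and tibialis (triangles), filled where the adjusted p is under 0.05. The symbols of a gene lie on one side of 0 in every gene but Ankrd1, whose tibialis value is -1.54.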

How the data were processed

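RNA from 32 mouse muscle libraries in 9 groups was sequenced. Per the submitters' processing notes, cutadapt 1.18, TopHat2 2.1.1, HTSeq 0.6.0 and DESeq2 1.22.1 were used on GRCm38; neither strand, multi-mapping reads nor filters are described there. Per the file headers, the authors deposited 1 table with raw read counts per gene and library, and with log2 fold changes and adjusted p-values of their own. Of 54838 genes listed, 6252 hold no value. The 48586 genes with values hold whole numbers. Count-based tests were not run, and the counts were analysed with limma-voom (limma 3.58.1, statmod 1.5.0, R 4.3.3), as the design allowed.

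Genes were kept at the CPM that equals 10 reads in the library of median size in 3 libraries, with 15 reads in all. Libraries were scaled by trimmed means of M values (trims 0.3 and 0.05), and CPM are counts per 1000000 reads of the scaled library total. The fit held the 11 quadriceps libraries, with group means and robust empirical Bayes; p-values were adjusted by Benjamini-Hochberg over all genes tested, at 0.05. Muscles were compared in a model of 32 libraries. The code was tested on simulated counts with the same spread in every group, so the test does not cover unequal spread between groups. Depth differs up to severalfold between libraries, so low genes are least precise.

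The members and lists were chosen with earlier results of these data known. Named genes are Gne, the 12 with the highest and the 12 with the lowest fold change among genes called with and without healthy replicate 4 whose CPM ranges do not overlap and whose higher mean is at least 5 CPM, up to 4 called members of each list by p, and up to 3 defining members of each cell type; others are said to be chosen later. A few genes that the rule names are not reported here. Replicates were numbered by the labels; whether equal numbers mark the same mouse is not stated.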

Additional observations from a re-analysis of the deposited data

Results flagged for a closer look

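In the 4 healthy quadriceps libraries, 72 summed lists and named genes were tested by Dixon's ratio, the gap of the extreme library to its nearest neighbour over the range of the group. Chance gives about 1 in 20 such values above the critical value at 95%, and 12 were above it. Healthy replicate 4 was the high library in 9 of them. These were the sums of adipocyte markers (0.938), sterol and fatty acid synthesis (0.987), glucocorticoid receptor and responsive genes (0.963), metallothioneins and zinc transporters (0.99), interleukin 6 signalling and acute phase (0.916) and lymphocyte markers (0.836), and the genes Cebpd (0.91), Il6ra (0.913) and Lep (0.943). Healthy replicate 2 was the high library for the sums of collagens (0.866) and of acetylcholine receptor and neuromuscular junction genes (0.961), and the low one for 2410006H16Rik (0.934). Many of these genes and sums share members or libraries, so the values are not independent of each other. The excess of adipocyte transcripts in healthy replicate 4 was known before these ratios were taken. Its high values are therefore not separate support for it, and 12 of 72 is not a test against chance.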

How the results depend on the processing

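The count of 2431 genes past 0.05 stayed within 1.5 times under a median-of-ratios scaling (2459), a stricter count filter (2376), limma-trend (2600), ordinary empirical Bayes (2477), sample quality weights (3405) and a fit of all 32 libraries (2306). It was 1458 with no filter on low counts, 366 with the 7 knock-in libraries alone and 408 without both sick replicate 2 and healthy replicate 4. Leaving out 1 knock-in library gave 289 to 4061, and leaving out 1 wild-type library, a setting chosen after seeing the data, gave 1742 to 2368. The cause of these differences was not tested. With the replicate number as a replicate block the count was 1658. Deviations of same-numbered sick and healthy libraries from their group means had correlations of 0.016, -0.105 and 0.044 for numbers 2, 3 and 4. With so few libraries, these values cannot decide whether equal numbers mark anything shared. Of 134 named called genes, 0 changed sign under any of these settings, which their choice as called genes favoured. Many were no longer past 0.05. These were 100 of 133 tested without sick replicate 2, 66 of 133 without sick replicate 3 and 51 of 134 without healthy replicate 3. With the 7 knock-in libraries alone they were 88 of 134, and without both sick replicate 2 and healthy replicate 4 they were 96 of 133. Each other setting lost 0 to 42. The difference between muscles gave 0 calls under each setting run for it. A count-model test was not run, although the 48586 genes with values hold whole numbers. Sick quadriceps has 3 libraries, so its spread is poorly known.

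Genes that were not called changed sign under some settings. Gne had a log2 fold change of -0.091, and -0.171 to 0.0484 with libraries left out. Lpl had a log2 fold change of 0.259, and -0.00131 under the replicate block, -0.0137 to 0.65 with libraries left out. Gsn had a log2 fold change of 0.124, and -0.00153 under the replicate block, -0.0096 to 0.301 with libraries left out. Dcn had a log2 fold change of 0.0778, and -0.017 with no count filter, -0.082 under the replicate block, -0.0753 to 0.235 with libraries left out. Thbs4 had a log2 fold change of -0.283, and -0.905 to 0.486 with libraries left out. Itga7 had a log2 fold change of 0.0878, and -0.0947 to 0.308 with libraries left out. Mrc1 had a log2 fold change of -0.389, and -0.797 to 0.19 with libraries left out. Mbp had a log2 fold change of 0.0823, and -0.219 with sample quality weights, -0.171 under the replicate block, -0.13 to 0.286 with libraries left out. Cyp4b1 had a log2 fold change of -0.266, and 0.127 with sample quality weights, -0.579 to 0.627 with libraries left out. Myh4 had a log2 fold change of 0.13, and -0.00163 to 0.341 with libraries left out. Acta1 had a log2 fold change of -0.049, and 0.102 with sample quality weights, -0.211 to 0.197 with libraries left out. The cause was not tested.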
